A study of Danio rerio with 10 samples.

Results

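Eosinophil progenitors (EoP) are the 124 cells of whole zebrafish kidney that the authors' annotation of the eosinophil lineage names EoP, out of 1504 staged eosinophil lineage cells and 101598 kidney cells. They were taken from that annotation alone, the genotype from its genotype column and the library from the cell barcode. The study had profiled the kidney, where adult zebrafish make their blood cells, by droplet-based scRNA-Seq to ask how 2 transcription factors of the C/EBP family act on eosinophils. The 3 groups, each of 3 libraries from separate adult female fish of the AB strain without a transgene, were *cebp1*-/- mutants, *cebpb*-/- mutants and wild-type fish (WT). The mutations are carried by every cell of the fish, so that no cell type was targeted. A further library held cells sorted from pooled kidneys of wild-type fish that express green fluorescent protein under the promoter of *eslec*, an eosinophil gene.

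Eosinophils are granulocytes that arise from haematopoietic stem and progenitor cells (HSPCs) by way of myeloid progenitors. The authors ordered the lineage from eosinophil-biased progenitors (Eb-P), which share genes with HSPCs, through EoP and precursors (pre.Eos) to mature eosinophils (mat.Eos). EoP were named for *mcm2*, which encodes a subunit of the helicase that opens DNA for replication, and *pcna*, which encodes the clamp that holds DNA polymerase on its template. The values at hand were cell labels, UMIs (barcodes that mark single captured transcripts, so that each molecule is counted once), detected genes and the mitochondrial share of the UMIs of each cell. Levels of *mcm2* and *pcna* were therefore not analysed here, and the label EoP was not checked against them. All 124 EoP also carried the label eosinophil in the annotation of all kidney cells. The study had divided its eosinophil lineage cells into the stages, so this is no check of the label EoP. Of the EoP, 0 shared a barcode with a cell of another library, as 2459 kidney cells did.

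The whole-kidney libraries held 7918 to 14440 cells with medians of 1756 to 3208.5 UMIs. The median mitochondrial share lay between 0.884 and 1.69% in the libraries numbered 1 and between 3.39 and 9.47% in those numbered 2 and 3. Errors are SDs over the 3 libraries of a genotype, and the share of a single library has an exact Clopper-Pearson 95% interval. These intervals cover counting error only.

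EoP were found mainly in *cebp1* mutants, which held 84.7% of them, but not evenly among these fish. These mutants also held 1015 of the 1504 staged cells, and their libraries 51, 29 and 33 of the 127 Eb-P. The *cebp1* mutant libraries held 61, 7 and 37 EoP, the *cebpb* mutant libraries 3, 0 and 0, and the WT libraries 9, 4 and 3. Of the *cebp1* mutants, library 2 thus resembled WT in number, and the *cebpb* mutants held EoP in library 1 alone. In the order of the 4 stages by cell number, EoP were the third or the last in the *cebp1* mutant and WT libraries, after pre.Eos and mat.Eos in each of them, and level with Eb-P in WT library 2.

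As a share of staged cells, EoP made up 19.1% of 319 cells, 1.92% of 364 cells and 11.1% of 332 cells in the *cebp1* mutant libraries, with intervals of 14.95 to 23.9%, 0.777 to 3.92% and 7.97 to 15.03%. In the *cebpb* mutants they made up 8.11% of 37 cells in library 1 (1.70 to 21.9%), while 0 of 43 and 0 of 25 cells in libraries 2 and 3 allow shares of up to 8.22% and 13.7%. In WT they made up 7.26% of 124 cells (3.37 to 13.3%), 2.34% of 171 cells (0.641 to 5.88%) and 3.37% of 89 cells (0.701 to 9.54%). The interval of *cebp1* mutant library 2 did not reach those of the other 2 libraries of its genotype, so that EoP differed between *cebp1* mutant fish by more than counting error. The WT intervals overlapped each other.

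**Figure D1:**
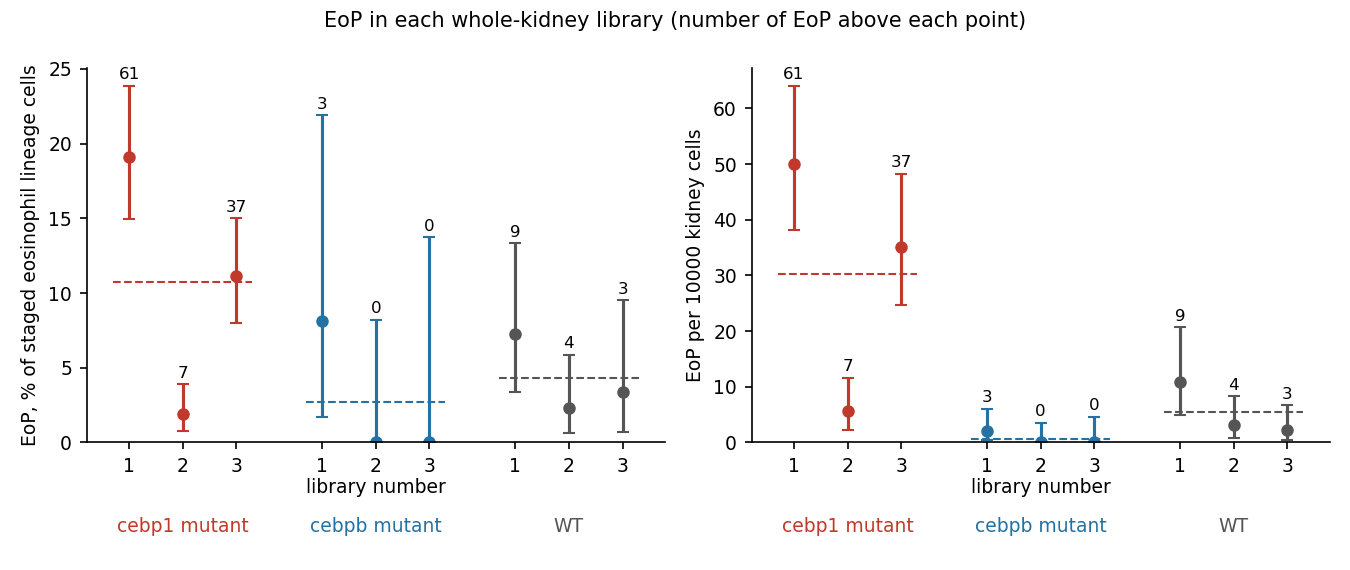
EoP in each of the 9 whole-kidney libraries, as a percentage of staged eosinophil lineage cells (left) and per 10000 kidney cells (right), with the *cebp1* mutants, the *cebpb* mutants and WT from left to right. Points are libraries with exact 95% intervals, dashed lines are means of 3 libraries, and the number above each point is that of EoP. *cebp1* mutant libraries 1 and 3 stand apart at 49.9 and 35.1 per 10000 cells, and library 2 lies at 5.65, between the WT libraries at 10.9 and 3.23.

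The first comparison asked whether EoP take a larger part of the lineage in *cebp1* mutants than in WT. The mean share was 10.7 ± 8.61% in *cebp1* mutants and 4.32 ± 2.59% in WT, a 2.48-fold difference that lay within the spread between libraries. By edgeR's quasi-likelihood test the log2 difference was 1.31 (SE 0.88, adjusted p = 0.225). Of the 4 stages 0 passed (0%), although 1 had an unadjusted p under 0.05, and DESeq2 called 2 stages and limma 0, in neither case EoP. The two-sided exact permutation test gave p = 0.4, where the smallest p that 3 against 3 libraries allow is 0.1. The fold was 1.51 without *cebp1* mutant library 1 and 3.76 without WT library 1.

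This result depended on how the spread between libraries was taken. With the library number as a block, EoP were called (log2 difference 1.21, adjusted p = 0.00392 by edgeR), and likewise without *cebp1* mutant library 2 (1.81, adjusted p = 0.0184). The labels do not say that a library number marks a shared batch. A check of the pairing by number, given below, depended on the cell types used. Within libraries 2 and 3 of each genotype, which share the higher mitochondrial level, the difference was 1.22 (adjusted p = 0.524).

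A share of the lineage also moves with the other stages, so EoP were counted among all kidney cells. There were 49.9, 5.65 and 35.1 EoP per 10000 cells in *cebp1* mutants, against 10.9, 3.23 and 2.29 in WT. The intervals of *cebp1* mutant libraries 1 and 3, 38.2 to 64.1 and 24.7 to 48.3, lay above those of every WT library, of which the highest was 4.98 to 20.7. The interval of *cebp1* mutant library 2, 2.27 to 11.6, overlapped all 3 WT intervals.

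The mean was 30.2 ± 22.5 per 10000 cells in *cebp1* mutants and 5.47 ± 4.72 in WT, a 5.52-fold difference (exact permutation p = 0.2). By edgeR over 18 cell populations, of which 11.1% passed in this contrast, the log2 difference for EoP was 2.51 (SE 0.96, adjusted p = 0.111). Those that passed by edgeR were Eb-P (2.85, adjusted p = 0.00946) and neutrophils (-4.18, adjusted p = 0.00456). EoP passed with DESeq2 (2.52, adjusted p = 0.0432), with the library number as a block (2.37, adjusted p = 0.00454), within libraries 2 and 3 of each genotype (2.82, adjusted p = 0.0355) and without *cebp1* mutant library 2 (2.99, adjusted p = 0.0423). EoP did not pass in the other 15 of the 19 alternatives, and all 19 spanned adjusted p-values of 0.00454 to 0.347. The fold was 3.72 without *cebp1* mutant library 1 and 10.95 without WT library 1.

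Other denominators ranked *cebp1* mutant library 2 with WT as well. Among cells other than erythrocytes, EoP made up 0.849, 0.0809 and 0.434% in *cebp1* mutants, against 0.117, 0.0530 and 0.0423% in WT. In UMIs, EoP supplied 1.30, 0.178 and 0.711% of the captured molecules of the *cebp1* mutant libraries, against 0.399, 0.131 and 0.102% in WT libraries. In each of these measures *cebp1* mutant library 2 lay within the WT range. They all rest on the same 7 EoP of that library and are not independent of each other.

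Not every cell labelled eosinophil among all kidney cells had a stage, and the share that had one differed among libraries. The eosinophil numbers that the study lists per library are those of the staged cells alone. Staged cells were 48.1, 60.5 and 64.3% of the cells labelled eosinophil in *cebp1* mutants, 84.1, 93.5 and 100% in *cebpb* mutants and 93.9, 73.1 and 61.8% in WT. Of all cells labelled eosinophil, EoP made up 9.20, 1.16 and 7.17% in *cebp1* mutants, 6.82, 0 and 0% in *cebpb* mutants and 6.82, 1.71 and 2.08% in WT. On this denominator the mean of *cebp1* mutants was 1.65-fold that of WT (exact permutation p = 0.6). Cells without a stage had medians of 1143, 1408 and 1280.5 UMIs in *cebp1* mutants. In WT their medians were 3475, 1497 and 1370 UMIs. Whether they include EoP was not tested.

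The comparison of *cebpb* mutants with WT rested on 3 EoP. Per 10000 kidney cells the *cebpb* mutant libraries held 2.08, 0 and 0 EoP, of which the zeros allow up to 3.57 and 4.66, against 10.9, 3.23 and 2.29 in WT. The highest *cebpb* mutant library thus lay just under the lowest WT library, but the limits of both zeros lay above it. Over all libraries of a genotype, 3 of 32684 cells in *cebpb* mutants and 16 of 33757 cells in WT were EoP, a ratio of 0.194 with a counting interval of 0.0362 to 0.677 that leaves out the spread between fish.

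By edgeR the log2 difference was -2.47 (SE 1.20, adjusted p = 0.291), in a fit in which 2 *cebpb* mutant libraries held no EoP, and 5.56% of the 18 populations passed. The population that passed by edgeR was Eb-P (-5.34, adjusted p = 0.0124), a size that depends on the prior count. For EoP the exact permutation test gave p = 0.1. With the library number as a block EoP were called lower (-2.77, adjusted p = 0.0285), and the 19 alternatives spanned adjusted p-values of 0.0285 to 0.575. The log2 difference was -1.57 without WT library 1 and -5.53 without *cebpb* mutant library 1, which leaves that genotype with no EoP. The size of the latter value depends on the prior count.

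Within the lineage no difference was detectable at this depth. The share of staged cells averaged 2.70 ± 4.68% in *cebpb* mutants and 4.32 ± 2.59% in WT (log2 difference -0.57, SE 1.39, adjusted p = 0.689 by edgeR; exact permutation p = 0.6). The ratio of the pooled shares was 0.686 with a counting interval of 0.128 to 2.40, which also leaves out the spread between fish. Of the 4 stages 0 passed (0%) by edgeR, by DESeq2 and by limma, and 1 had an unadjusted p under 0.05 by edgeR. The direction turned without *cebpb* mutant library 2 (0.12) or WT library 1 (0.04).

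The mutants were set against each other to ask whether they differ in EoP. EoP were higher in *cebp1* than in *cebpb* mutants among all kidney cells, with 49.9, 5.65 and 35.1 per 10000 cells in *cebp1* mutants, against 2.08, 0 and 0 in *cebpb* mutants, and no overlap between the libraries. By edgeR the log2 difference was 4.98 (SE 1.16, adjusted p = 0.00601), in a contrast in which 27.8% of the 18 populations passed and 22.2% passed as higher. Those that passed as higher were the 4 stages, with log2 differences of 8.19 for Eb-P, 3.77 for mat.Eos and 1.72 for pre.Eos. The size for Eb-P depends on the prior count, because *cebpb* mutants had no Eb-P. For EoP the libraries gave an exact permutation p of 0.1, the smallest possible. EoP passed in all 19 alternatives run (adjusted p of 5.99e-07 to 0.0262). Over all libraries of a genotype the ratio was 32.5 with a counting interval of 10.8 to 160.3. This interval treats pooled cells as independent and leaves out the spread between fish. Without *cebpb* mutant library 1 the log2 difference was 8.04, a size that depends on the prior count because no EoP were left in that genotype.

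As a share of staged cells the same contrast did not pass (log2 difference 1.88, SE 1.23, adjusted p = 0.210 by edgeR; exact permutation p = 0.2), while 50% of the 4 stages did. EoP were called with the library number as a block (1.82, adjusted p = 0.0137) and without *cebp1* mutant library 2 (2.37, adjusted p = 0.0183). Without *cebpb* mutant library 1 the log2 difference was 7.30 (adjusted p = 0.0809), again a size that depends on the prior count. The 3 contrasts share libraries and are not independent of each other.

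EoP were next set against the populations before and after them in the same library. The ratios that follow share their EoP numbers, so neither they nor their tests are independent of each other. Next to Eb-P, the stage before, EoP stood at 119.6, 24.1 and 112.1 per 100 Eb-P in *cebp1* mutants, against 150, 100 and 75 in WT, where only 6, 4 and 4 Eb-P were counted. The means of 85.3 ± 53.1 and 108 ± 38.2 did not differ beyond their spread (log2 difference -0.58, SE 1.30, adjusted p = 0.656 by limma; exact permutation p = 0.7). Without *cebp1* mutant library 2 the difference turned to 0.15. The *cebpb* mutants had no Eb-P in any library, so that the 3 EoP of library 1 stood without the stage before them.

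Per 100 pre.Eos, the stage after, there were 67.0, 8.54 and 56.9 EoP in *cebp1* mutants, against 15.3, 7.41 and 10.3 in WT. The means were 44.2 ± 31.3 in *cebp1* mutants and 11.0 ± 3.96 in WT (log2 difference 1.49, adjusted p = 0.291 by limma; exact permutation p = 0.3). Library 2 of the *cebp1* mutants again lay within the WT range, and without it the difference was called (2.42, adjusted p = 0.0162). In the *cebpb* mutants, where pre.Eos numbered 31, 24 and 13, there were 9.68, 0 and 0 EoP per 100 pre.Eos.

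Per 100 mat.Eos, EoP stood at 52.6, 2.85 and 18.8 in *cebp1* mutants, at 100, 0 and 0 in *cebpb* mutants, whose library 1 held 3 of each, and at 18, 3.67 and 5.66 in WT. These ranges overlapped between all genotypes. The log2 difference of *cebp1* mutants from WT was 0.86 (adjusted p = 0.550 by limma; exact permutation p = 0.6) and turned to -0.068 without *cebp1* mutant library 1.

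**Figure D2:**
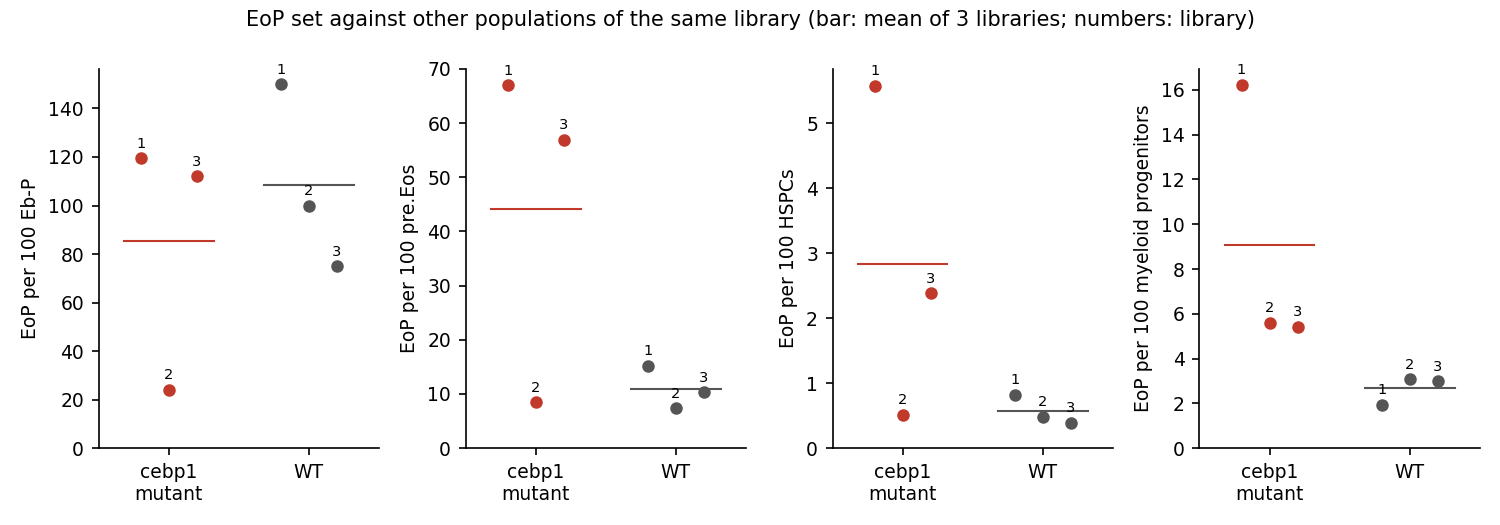
EoP per 100 Eb-P, pre.Eos, HSPCs and myeloid progenitors of the same library, in *cebp1* mutants (left of each panel) and WT (right), with library numbers beside the points and bars for the means of 3 libraries. Of these 4 ratios, only that to myeloid progenitors separates the genotypes, with 5.42 to 16.2 in *cebp1* mutants and 1.94 to 3.08 in WT.

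HSPCs and myeloid progenitors stand before the lineage. Per HSPC, *cebp1* mutant library 2 lay within the WT range once more. EoP stood at 5.58, 0.518 and 2.39 per 100 HSPCs in *cebp1* mutants, at 0.212, 0 and 0 in *cebpb* mutants and at 0.823, 0.481 and 0.391 in WT. The log2 difference between *cebp1* mutants and WT was 1.71 (SE 1.31, adjusted p = 0.257 by limma; exact permutation p = 0.2) and was called without *cebp1* mutant library 2 (2.62, adjusted p = 0.0162).

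Myeloid progenitors, the precursors of granulocytes and macrophages, gave the only ratio of these 5 (Eb-P, pre.Eos, mat.Eos, HSPCs and myeloid progenitors) in which the genotypes did not overlap. There were 16.2, 5.60 and 5.42 EoP per 100 myeloid progenitors in *cebp1* mutants, against 1.94, 3.08 and 3.0 in WT, with means of 9.08 ± 6.19 and 2.67 ± 0.638 (3.40-fold). Here *cebp1* mutant library 2 lay above WT, and it was also the *cebp1* mutant library with the fewest myeloid progenitors (125, against 376 and 683 in libraries 1 and 3), while WT libraries held 465, 130 and 100. The exact permutation p was 0.1, and limma did not call the ratio (log2 difference 1.48, SE 1.29, adjusted p = 0.291). Over the ratios of EoP to 17 other populations 5.88% passed, which is the single ratio to neutrophils (log2 difference 6.77). EoP stood at 148.8, 10.4 and 16.4 per 100 neutrophils in *cebp1* mutants, against 0.423, 0.206 and 0.174 in WT, again without overlap, and neutrophils themselves numbered 41, 67 and 225 in *cebp1* mutants and 2129, 1944 and 1729 in WT.

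EoP were cells of high transcript number. In each of the 7 libraries that held EoP, their median UMIs were the highest of the stages present, and in 5 of the 7 so were their detected genes. Among the 17 or 18 populations of a library with enough cells, EoP ranked the first by median UMIs in 5 libraries, the third in *cebp1* mutant library 3 and the second in *cebpb* mutant library 1. In the latter 2, myeloid progenitors had more UMIs (medians of 9693 and 8607). Myeloid progenitors also had more detected genes than EoP in the *cebp1* mutant libraries (1497, 1405 and 2244) and in WT libraries 2 and 3 (1550.5 and 1736). They had fewer in WT library 1 (2303) and *cebpb* mutant library 1 (2071.5). The median EoP lay at percentile 92.8, 96.1 and 84.9 of the UMIs of all cells of the *cebp1* mutant libraries, at 92.1 in *cebpb* mutant library 1 and at 98.9, 98.2 and 99.0 in WT. Of the 124 EoP, 78.2% had at least 8000 UMIs, against 17.4% of the other staged cells, most of which were mat.Eos. The stage nearest to EoP was Eb-P, with medians of 9379, 9308 and 7614 UMIs in *cebp1* mutants and 16368.5, 5540 and 16654.5 in WT. In *cebp1* mutant library 2 and WT library 3, the Eb-P had more detected genes (medians of 1176 and 1580) than the EoP (1078 and 1556). These are descriptions without a test, because the stages had been set on transcript counts of the same cells.

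**Figure D3:**
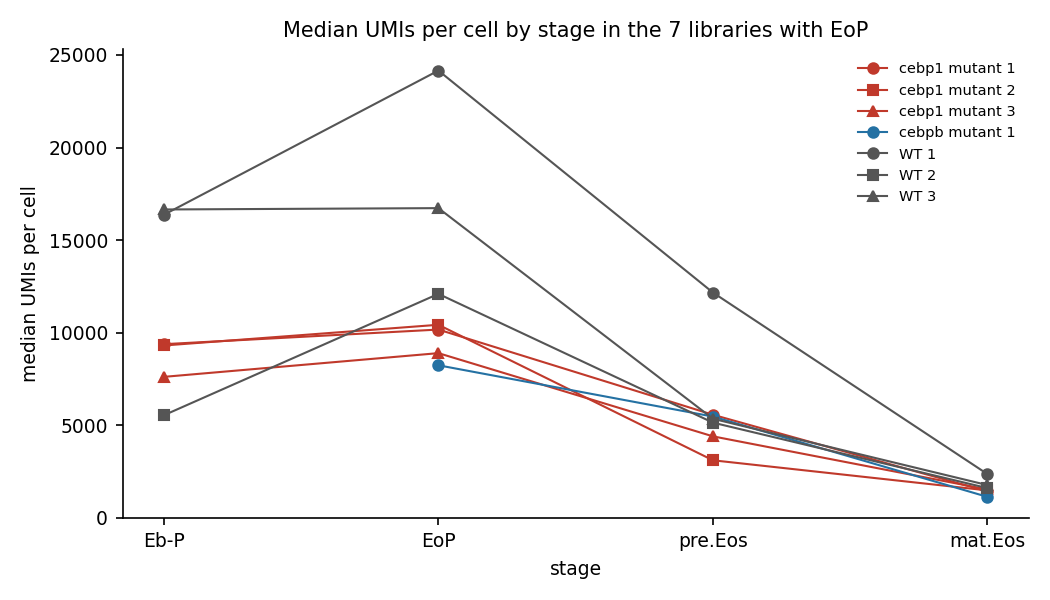
Median UMIs per cell of the stages in the 7 libraries with EoP, in the order of the lineage given by the authors; colours mark genotypes and symbols library numbers. The EoP median is the highest of the stages in each library, between 8239 and 24157 UMIs, and the mat.Eos median the lowest. *cebpb* mutant library 1 has no Eb-P.

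Single EoP ranged widely. In *cebp1* mutants the lowest, median and highest UMIs per EoP were 1127, 10169 and 19959 in library 1, 5090, 10427 and 19911 in library 2 and 2041, 8895 and 18541 in library 3. The 3 EoP of *cebpb* mutant library 1 had 6838, 8239 and 19203 UMIs. In WT library 1 the lowest, median and highest values were 2649, 24157 and 33307, while library 2 had EoP of 9696, 9838, 14354 and 23561 UMIs and library 3 of 15679, 16727 and 16762. EoP of *cebp1* mutants thus centred near the same value in all 3 libraries, where WT libraries centred higher and farther apart.

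Only 12 EoP had under 4000 UMIs, 8 of them in *cebp1* mutant library 1, 2 in *cebp1* mutant library 3 and 2 in WT library 1. They had 319 to 1015 detected genes and a median mitochondrial share of 2.09%, with a highest value of 12.5%. EoP above 10% mitochondrial UMIs numbered 2.

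**Figure D4:**
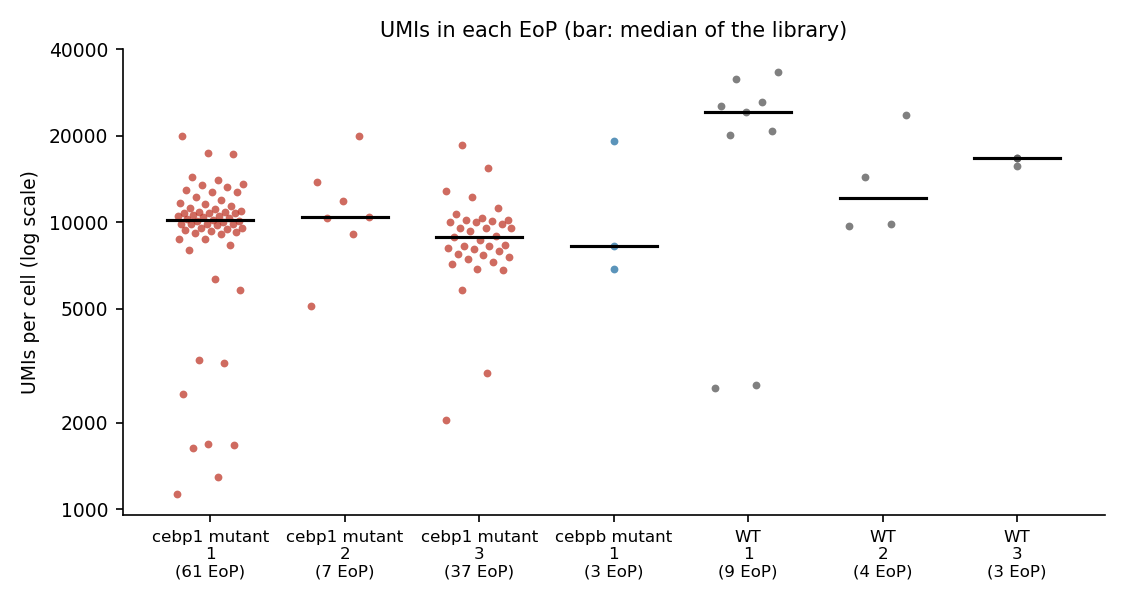
UMIs in each of the 124 EoP on a log scale, by library, with the library median as a bar; *cebp1* mutant libraries stand left, then *cebpb* mutant library 1, then WT. The *cebp1* mutant medians lie between 8895 and 10427, and the WT medians between 12096 and 24157.

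The library medians of UMIs per EoP averaged 9830 ± 820 in *cebp1* mutants and 17660 ± 6084 in WT, a WT mean 1.80-fold higher, with no overlap between the libraries. The two-sided exact permutation test gave p = 0.1 (0.15 adjusted over the 3 cell measures compared). By limma over 18 populations the log2 difference was -0.79 (SE 0.27, unadjusted p = 0.0221, adjusted p = 0.199), and 0 populations passed (0%), with 2 at an unadjusted p under 0.05. It was the lowest log2 difference of the 18 populations, of which 13 were lower in *cebp1* mutants, with a median log2 difference of -0.17. That of pre.Eos was close to it at -0.71, and myeloid progenitors, Eb-P and mat.Eos stood at -0.44, -0.39 and -0.35. The mat.Eos medians did not overlap either, at 1426.5, 1481 and 1532 UMIs in *cebp1* mutants and 2360, 1604 and 1767 in WT. Those of Eb-P, pre.Eos and myeloid progenitors overlapped between the genotypes. EoP were called lower with the mean of log2 UMIs in place of the median (-0.71, adjusted p = 0.0404), with at least 5 cells per library (-1.30, adjusted p = 0.0476), where WT rests on library 1 alone, and without WT library 2 (-1.04, adjusted p = 0.0333). Adjusted p ran from 0.0333 to 0.529 over the alternatives.

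To set EoP against the depth of their libraries, they were related to HSPCs, which had medians of 5243, 2914.5 and 5995.5 UMIs in *cebp1* mutants and 8318, 2792 and 4804 in WT (log2 difference -0.095, adjusted p = 0.838 by limma). Relative to these, EoP stood at 1.94, 3.58 and 1.48 times the HSPC median in *cebp1* mutants, against 2.90, 4.33 and 3.48 times in WT. On this scale the libraries overlapped (log2 difference -0.70, exact permutation p = 0.3), *cebp1* mutant library 2 lying within the WT range. Within libraries 2 and 3 of each genotype the log2 difference in UMIs was -0.56 (adjusted p = 0.308 by limma).

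Genes detected per EoP were likewise fewer in *cebp1* mutants than in WT, with medians of 1314, 1078 and 1419 against 2470, 1504.5 and 1556. In *cebpb* mutant library 1, which had the lowest median UMIs (8239), the median was 2102 genes. The lowest WT library lay above the highest *cebp1* mutant library (exact permutation p = 0.1), and limma did not call the difference (log2 difference -0.51, adjusted p = 0.590). Genes per cell rise with UMIs, and the files used here gave no counts per gene from which cells could be thinned to a common depth. In EoP of 8000 to 17000 UMIs, the median was 1357, 1078 and 1464 genes over 47, 5 and 24 cells of *cebp1* mutants, against 1373 and 1556 genes over 3 cells each in WT libraries 2 and 3. In this range the genotypes overlapped, and WT library 1 had no EoP.

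The 3 EoP of *cebpb* mutant library 1 had 1941, 2102 and 3427 genes at 6838, 8239 and 19203 UMIs. Each of these values is above the median gene number of every *cebp1* mutant library, whose highest single EoP had 2758, 1918 and 2990 genes. The pre.Eos of *cebpb* mutant library 1 also had more genes, with medians of 1235 genes at 5469 UMIs, against 983 at 5567 in *cebp1* mutant library 1. Outside the lineage, so had its HSPCs (1071 at 3618, against 1033 at 5243) and myeloid progenitors (2071.5 at 8607, against 1497 at 6665.5). Its mat.Eos had fewer (389 at 1131, against 409 at 1426.5). With 3 EoP of 1 fish, no test was run.

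**Figure D5:**
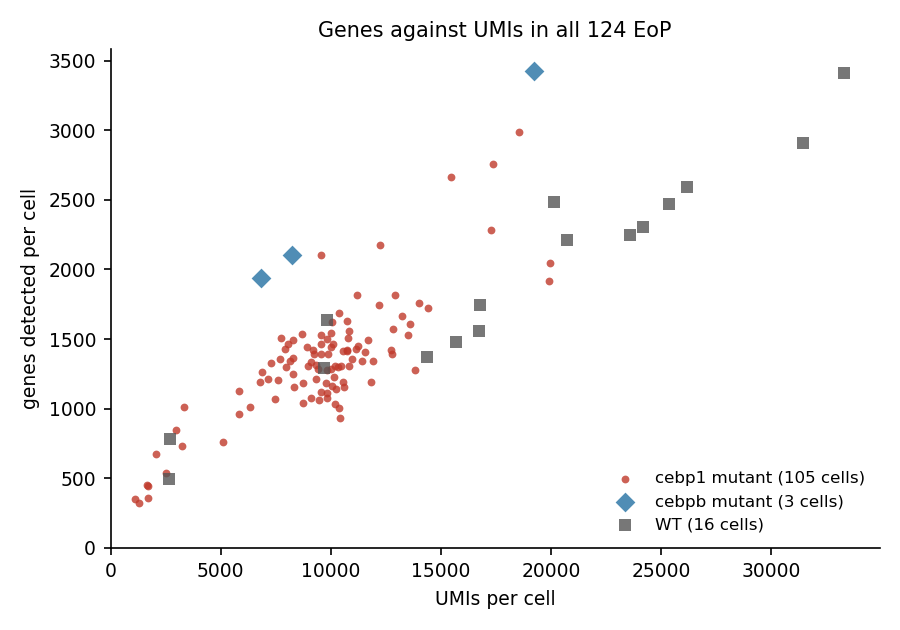
Detected genes against UMIs in all 124 EoP, with circles for the *cebp1* mutants, diamonds for the *cebpb* mutants and squares for WT. Most *cebp1* mutant EoP lie near 10000 UMIs, and 12 of the 124 EoP lie under 4000 UMIs with 319 to 1015 genes.

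The mitochondrial share of EoP was lower in the libraries numbered 1 than in those numbered 2 and 3 of the same genotype, with medians of 1.10, 3.58 and 3.52% in *cebp1* mutants, 1.51% in *cebpb* mutant library 1 and 0.516, 3.30 and 3.16% in WT (exact permutation p = 0.5 for *cebp1* mutants against WT). EoP lay below mat.Eos in 7 of 7 libraries and below pre.Eos in 4 of 7.

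Since most EoP had high UMIs, their share was also taken among staged cells of at least 8000 UMIs. Here EoP made up 43.1% of 116 cells, 14.6% of 41 and 39.7% of 63 in *cebp1* mutants. They were 2 of 13, 0 of 4 and 0 of 3 cells in *cebpb* mutants, and 13.0% of 54, 16.0% of 25 and 16.7% of 18 cells in WT. The WT libraries stood close together on this share, within wide intervals (5.37 to 24.9%, 4.54 to 36.1% and 3.58 to 41.4%), and *cebp1* mutant library 2 again lay among them. EoP were called higher in *cebp1* mutants than in WT by edgeR (log2 difference 1.25, adjusted p = 0.0171), in an alternative chosen after the data were seen (exact permutation p = 0.3). The minimum kept 220 of 1015 staged cells in *cebp1* mutants, 81 of them EoP, and 97 of 384 in WT, 14 of them EoP. How differences in UMIs per cell between the genotypes bear on this share was not tested.

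In the sorted library, EoP were 450 of 2092 cells, or 21.5% (19.8 to 23.3%). The annotation of that library had no Eb-P. With Eb-P left out, EoP in whole kidney were 22.8, 2.09 and 12.4% of staged cells in *cebp1* mutants, 8.11, 0 and 0% in *cebpb* mutants and 7.63, 2.40 and 3.53% in WT. The sort on *eslec*, other cell filters and the use of spliced UMIs set the sorted library apart, so that the values stand side by side without a comparison. Sorted EoP had a median of 5692.5 spliced UMIs (quartiles of 2305 and 21413) and 1280.5 genes, and 42.0% of them had under 4000 UMIs.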

How the data were processed

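Droplet-based scRNA-Seq had been run on whole kidneys of 9 fish and on 1 sorted library. The submitters' processing notes name Cell Ranger, Seurat and GRCz11. The authors integrated, clustered and annotated the cells, removed doublets by their features, and deposited UMI counts per cell without normalization. Mitochondrial UMIs were deposited by the authors as a percent of all UMIs per cell. In whole kidney the lowest values were 1001 UMIs and 201 genes, the highest mitochondrial share was 15.0%, and no cell was removed here. The files held no counts per gene that were used here.

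The library number follows the suffix of the barcodes: under each suffix, both all cells and the staged eosinophil lineage cells were as many as the methods of the study list for 1 library of that genotype. P-values cover differences between fish and between preparations alike. Columns of other series numbered 0.

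Numbers of cells per library were tested with the quasi-likelihood F-test of edgeR 4.0.16 with an untrended dispersion, over the 4 stages, with staged cells as offset, and over 18 populations (4 stages and 14 cell types), with all cells as offset. All 9 libraries shared the estimate of the spread. The SE is the log2 difference divided by the square root of F. Ratios of cells (pseudocount 0.5 on both numbers) and log2 medians of UMIs and genes (at least 3 cells per population and library) were tested with limma 3.58.1 on *cebp1* mutant and WT libraries. The Benjamini-Hochberg adjustment was made per contrast at a threshold of 0.05. Exact permutation tests (SciPy 1.17.1) were two-sided. Where a library held 0 EoP, the limit is the upper end of its exact interval. Other software was R 4.3.3, DESeq2 1.42.0, Python 3.11.15, matplotlib 3.10.9 and pandas 2.3.3. The fits of shares of all cells were also run on simulated counts with a single spread set for every population. These runs do not show how the fits behave at the spread of EoP between libraries, and ratios and medians were not simulated.

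EoP were named in every comparison, passed or not, and other populations where EoP were set against them. The neighbouring populations, tests and most alternatives were chosen with earlier results of these data known.

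To check the pairing, deviations of libraries from their genotype mean were correlated between same-numbered libraries over 15 cell types. All 9 pairs lay over 0.1 (lowest 0.278, median 0.620, highest 0.846), the criterion for fitting the number as a block, although 5 of 9 libraries correlated best with their own number. Without atypical cells, a population frequent in *cebp1* mutants, the lowest was -0.552 and the median 0.241. The labels do not say that a number marks a shared batch.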

Additional observations from a re-analysis of the deposited data

How the results depend on the processing

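Over 13 results, 187 alternative values were computed. Of these, 168 kept the direction and the side of the threshold, 15 passed where the reported test had not, 4 turned in direction and 0 lost a call. The cause was not tested. Only EoP among all cells in *cebp1* against *cebpb* mutants had passed in the reported test, so that only its 19 alternatives could lose a call. The ratio to the HSPC median had the exact permutation test alone, which cannot fall under 0.1. The tally is therefore no measure of how firm the other results are. When the replicate number entered as a block, the log2 difference of EoP was called as a share of staged cells in *cebp1* mutants against WT (1.21) and against *cebpb* mutants (1.82), and as a share of all cells in *cebp1* mutants (2.37) and *cebpb* mutants (-2.77) against WT. Per cell of another population, the block also called the ratios of EoP to T lymphocytes, atypical cells and unknown cells. It changed no other call on EoP. Over all populations it gave 3 calls in place of 0 and 4 in place of 2 among stages of *cebp1* mutants against WT and against *cebpb* mutants, 3 in place of 0 for *cebpb* mutants against WT, 4 in place of 2 and 4 in place of 1 among all cells for *cebp1* and for *cebpb* mutants against WT, 4 in place of 1 among ratios and 1 in place of 0 for UMIs. DESeq2 gave 4 calls in place of 2 and 2 in place of 1 among all cells for *cebp1* and for *cebpb* mutants against WT, and 2 in place of 0 among stages of *cebp1* mutants against WT. For *cebp1* against *cebpb* mutants among all cells, both gave 6 in place of 5. For *cebp1* mutants against WT, EoP among all cells were also called with DESeq2 (2.52) and within libraries 2 and 3 of each genotype (2.82). EoP among staged cells were called with only cells of at least 8000 UMIs (1.25). UMIs per EoP were called with the mean of log2 values (-0.71) and with at least 5 cells (-1.30). The minimum of 8000 UMIs, that of 4000 UMIs, the omission of Eb-P, the ratio to the HSPC median, and libraries 2 and 3 alone for UMIs and ratios, were chosen after seeing the data.

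With 1 library left out in turn, the log2 difference of *cebp1* mutants from WT ran from 0.60 to 1.93 among staged cells, from 1.93 to 3.40 among all cells, from -0.97 to 0.15 per Eb-P, from 0.97 to 2.42 per pre.Eos, from -0.068 to 1.99 per mat.Eos, from 0.95 to 2.62 per HSPC, from 0.98 to 1.77 per myeloid progenitor, from -1.04 to -0.54 for UMIs and from -0.64 to -0.28 for genes. For *cebpb* mutants against WT it ran from -5.99 to 0.12 among staged cells and from -5.53 to -1.57 among all cells, and for *cebp1* against *cebpb* mutants from 1.16 to 7.30 and from 4.40 to 8.04. The values of -5.99, -5.53, 7.30 and 8.04 came without *cebpb* mutant library 1, and their size depends on the prior count. Leaving out *cebp1* mutant library 2, with 7 EoP, brought calls for *cebp1* mutants against WT per pre.Eos, per HSPC and as a share of staged and of all cells, and against *cebpb* mutants as a share of staged cells. Leaving out WT library 2, with 4 EoP, brought that of UMIs.

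The *cebpb* mutant comparisons rest on 3 EoP in 32684 cells, and the WT medians of UMIs rest on 9, 4 and 3 cells. Stages came from clusters of cells of several genotypes, and how the assignment of cells to stages bears on the numbers of EoP was not tested.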
